A study of Mus musculus with 64 samples.

Results

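The collagen genes of the developing mouse inner ear were described across the microdissected otic tissues and the tissue around them. They were taken as all genes whose symbol has the form Col, a number, a and a number, with a probe set on the array. Of 12393 genes with a probe set of a single symbol, 36 are such collagen genes, represented by 58 probe sets. Of these 36 genes, 31 passed the filter on low signals and were tested with 9352 genes in all: 7 fibrillar collagens (types I, II, III and V), 5 chains of the basement membrane collagen type IV, the 5 chains of types IX and XI, and 14 others. The other 5 never reached the median signal of an array on 2 arrays: Col10a1 lay at 10 to 54.6, Col15a1 at 10 to 77.1, Col17a1 at 10 to 36.6, Col25a1 at 10 to 65.3 and Col4a3 at 10 to 28.0, where 10 is the floor of the deposited signals.

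RNA came from CBA/J mouse embryos of both the inner ear epithelium and the adjacent tissue, without any mutation or agent, and was measured on 64 Affymetrix arrays in 32 groups of 2 arrays. The inner ear groups, 29 in number, were the otic placode at E9, the otic vesicle at E9.5 and E10, the ventral cochlear and dorsal vestibular regions at each stage of E10.5, E11, E11.5 and E12, the vestibular region without the endolymphatic duct, and the cochlea, the utricle dissected along with the ampullae, and the saccule at each stage of E12.5, E13, E13.5, E14, E14.5 and E15. The 3 groups of surrounding, non-inner ear tissue were E9, a pool of E9.5 to E10.5 and a pool of E11 to E15. Each array held a pool of 6 to 17 tissues where the labels number them, and the arrays of a group came from different litters. The epithelium was freed from its surroundings with the protease dispase and then dissected by hand. The enzyme acted for 8 to 10 minutes up to E10.5 and for 20 to 25 minutes from E11 on. Dispase time therefore differs between the earlier and later windows.

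Collagens are secreted proteins whose chains wind around each other into a long helix. Fibrillar types form the cables of bone, skin and cartilage, type IV forms the sheet on which epithelia rest, and types IX and XI sit on and inside the type II fibrils of cartilage. In the inner ear, types II, IX and XI also build the tectorial membrane, an acellular sheet that the cochlear epithelium secretes over its hair cells, and human mutations in the genes of types II, IX and XI can cause Stickler syndrome, in which hearing loss is common.

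Values below are quantile normalized probe set signals (linear, in the arbitrary units of the deposited intensities), and changes are differences of log2(signal + 16), which understate the change of dim genes. A gene was said to rise or fall, or to be higher or lower, when limma gave a Benjamini-Hochberg adjusted p under 0.05 over the 9352 genes and the change was at least 1 on the log2 scale. The label of the tissue was checked first. The summed signal of 15 epithelial genes was 7421 to 7555 in the placode, 7242 to 9879 in the inner ear at E9.5 to E10.5 and 6883 to 12362 at E11 to E15. In the surrounding tissue the sums were 2047 to 2275, 1411 to 1579.9 and 1023 to 1351 over the same ages. The inner ear arrays thus stood above all surrounding arrays at every age. The 17 measured genes of periotic mesenchyme, the connective tissue that surrounds the otic epithelium, ran the other way, at 1494 to 2186, 911 to 2091 and 1939.7 to 9064 in the inner ear and 4926 to 5602, 6169.5 to 6756 and 12884 to 13153 in the surrounding tissue. In such bulk tissue, fewer cells of a type and less RNA per cell cannot be told apart. Each signal belongs to its own probe set, so signals of different collagen genes are not compared.

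Promoter sequences from RefSeq were matched for 27 of the 36 genes in the table used, as 30 windows of 300 bases (250 before and 50 after the start of transcription, build GRCm38.p6). The promoters of the other genes, Col12a1, Col14a1, Col1a1, Col22a1, Col26a1, Col2a1, Col4a3, Col5a2 and Col9a3, were not analysed here. The windows printed here belong to the pair of type IV genes that share a start region and to the type I, III, IX and XI genes whose signals are described below. Each is written 5′ to 3′ on the strand of its gene, with capitals for matches, on either strand, to any of 4 short motifs. These are the TATA box (TATAAA), the binding motif of the factor NF-Y (CCAAT), the GC box bound by Sp factors (GGGCGG) and a core motif of Sox factors such as Sox9, a regulator of cartilage collagens (ACAAAG). Windows without capitals hold none of them, and a match is a description of letters only. Col4a1 lies at chr8:11312777-11313076 on the minus strand and Col4a2 at chr8:11312555-11312854 on the plus strand.
Col4a1: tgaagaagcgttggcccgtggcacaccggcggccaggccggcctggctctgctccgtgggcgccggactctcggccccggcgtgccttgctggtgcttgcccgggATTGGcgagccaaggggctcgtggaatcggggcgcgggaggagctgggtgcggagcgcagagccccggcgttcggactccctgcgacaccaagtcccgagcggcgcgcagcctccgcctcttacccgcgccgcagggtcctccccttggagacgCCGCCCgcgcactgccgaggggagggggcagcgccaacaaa
Col4a2: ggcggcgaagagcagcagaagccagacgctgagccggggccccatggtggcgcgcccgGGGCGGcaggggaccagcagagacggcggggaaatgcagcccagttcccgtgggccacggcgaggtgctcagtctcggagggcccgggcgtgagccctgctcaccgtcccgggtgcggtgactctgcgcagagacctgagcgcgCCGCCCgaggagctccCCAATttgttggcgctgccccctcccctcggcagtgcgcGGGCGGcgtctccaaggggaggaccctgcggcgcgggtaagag
Their starts are 21 bases apart, on opposite strands, and the windows share 78 bases. The type IX windows are chr1:24177360-24177659 and chr1:24194953-24195252 for the upstream and downstream starts of Col9a1 and chr4:121039316-121039615 for Col9a2, all on the plus strand.
Col9a1 upstream: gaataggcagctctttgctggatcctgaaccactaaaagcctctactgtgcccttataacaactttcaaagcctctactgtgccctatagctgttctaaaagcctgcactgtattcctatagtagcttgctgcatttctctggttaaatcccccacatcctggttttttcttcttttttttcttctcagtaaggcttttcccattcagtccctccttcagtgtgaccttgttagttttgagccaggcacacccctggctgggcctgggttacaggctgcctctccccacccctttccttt
Col9a1 downstream: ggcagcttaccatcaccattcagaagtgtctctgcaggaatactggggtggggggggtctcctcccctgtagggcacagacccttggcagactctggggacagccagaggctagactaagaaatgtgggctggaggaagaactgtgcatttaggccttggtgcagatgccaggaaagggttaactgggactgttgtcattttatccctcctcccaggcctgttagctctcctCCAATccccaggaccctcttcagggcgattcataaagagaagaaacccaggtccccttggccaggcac
Col9a2: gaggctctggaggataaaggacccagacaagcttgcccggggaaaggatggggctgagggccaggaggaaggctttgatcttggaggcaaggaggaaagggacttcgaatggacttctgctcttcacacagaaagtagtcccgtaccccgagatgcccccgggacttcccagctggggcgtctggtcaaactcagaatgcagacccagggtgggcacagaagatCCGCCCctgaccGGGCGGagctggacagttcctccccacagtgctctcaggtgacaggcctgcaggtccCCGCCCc
The windows of Col11a1 (chr3:114030290-114030589), Col1a2 (chr6:4505368-4505667) and Col3a1 (chr1:45311288-45311587) are also on the plus strand.
Col11a1: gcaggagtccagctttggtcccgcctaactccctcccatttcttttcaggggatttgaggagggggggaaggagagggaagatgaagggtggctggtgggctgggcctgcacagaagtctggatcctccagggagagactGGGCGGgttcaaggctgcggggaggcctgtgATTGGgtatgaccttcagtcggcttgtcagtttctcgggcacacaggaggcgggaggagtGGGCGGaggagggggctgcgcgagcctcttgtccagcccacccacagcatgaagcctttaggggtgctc
Col1a2: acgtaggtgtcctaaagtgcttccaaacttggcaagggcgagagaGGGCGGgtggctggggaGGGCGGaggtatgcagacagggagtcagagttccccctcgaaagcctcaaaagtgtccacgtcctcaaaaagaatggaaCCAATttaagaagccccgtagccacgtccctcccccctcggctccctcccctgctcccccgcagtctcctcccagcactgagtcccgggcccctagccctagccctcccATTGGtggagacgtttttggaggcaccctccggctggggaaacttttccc
Col3a1: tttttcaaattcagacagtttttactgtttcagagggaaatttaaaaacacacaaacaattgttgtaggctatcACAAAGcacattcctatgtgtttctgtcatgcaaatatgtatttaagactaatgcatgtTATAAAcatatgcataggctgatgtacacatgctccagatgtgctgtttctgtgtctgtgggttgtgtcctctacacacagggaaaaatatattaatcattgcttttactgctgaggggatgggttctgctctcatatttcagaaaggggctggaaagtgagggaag
Over all 30 collagen windows, TATAAA was found in 5, CCAAT in 12, GGGCGG in 17 and ACAAAG in 4. Of all 32851 promoter windows of the table, 13.6 percent hold TATAAA, 37.4 percent CCAAT, 35.7 percent GGGCGG and 18.7 percent ACAAAG. Col4a6 and Col4a5, the other type IV pair on opposite strands (chromosome X), start 1343 bases apart and their windows share no bases.

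The plot of signals by stage shows 12 of the collagens. The 3 type IX genes rose with age in the utricle, the type I and III genes stood high in the later surrounding tissue, and Col4a1 passed in no comparison within the inner ear or between inner ear and surroundings.

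**Figure D1:**
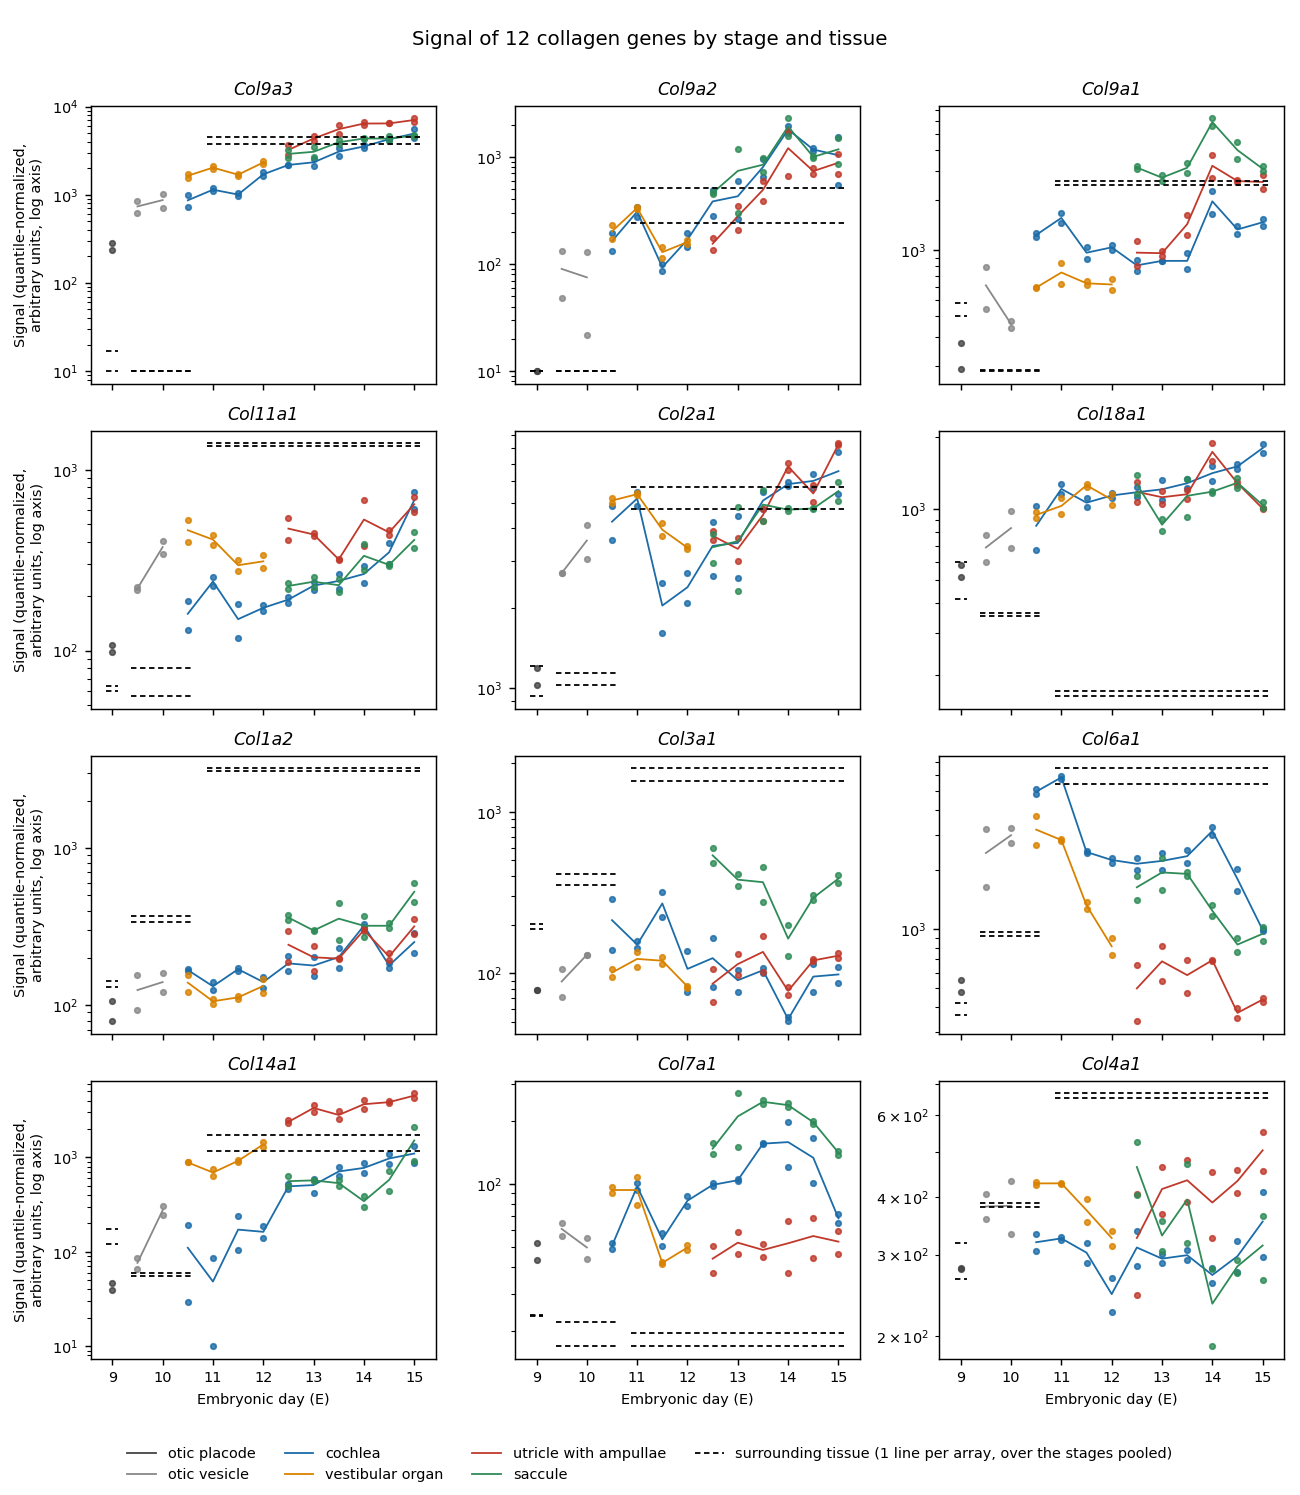
Signals of 12 collagen genes (log axis, arbitrary units of the quantile normalized intensities) against embryonic day, with a point for each array and a line through the mean of each inner ear tissue; dashed lines give the 2 arrays of each surrounding tissue pool over the days it covers. Col9a3 runs from 237 to 287 in the placode to 2810.1 to 7364 in the utricle at E12.5 to E15, and Col1a2 of the later surrounding tissue (3071 to 3208) lies above all inner ear arrays.

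The first question was which collagens mark the inner ear epithelium against its surroundings. At E9, 1 collagen was higher in the otic placode and 4 were lower than in the surrounding tissue, out of 31, against 5.93 percent of all genes called, 2.71 percent higher and 3.23 percent lower. At E9.5 to E10.5, 9 were higher and 5 lower, against 8.40 percent of all genes called, 3.72 percent higher and 4.68 percent lower. At E11 to E15, 2 were higher and 11 lower, against 15.6 percent of all genes called, 8.47 percent higher and 7.14 percent lower. The median collagen change was -0.05, -0.00 and -0.78 in these windows, beside a median over all genes of -0.05, 0.01 and -0.01. By class, the medians were -0.34, -0.88 and -2.33 for the 7 fibrillar genes (none, 1 and none higher, and 1, 3 and 5 lower). For the 5 genes of types IX and XI they were 0.16, 1.84 and -0.48 (1, 4 and none higher, and none, none and 1 lower). For the 5 type IV genes they were -0.03, 0.20 and -0.72, and for the 14 others -0.20, -0.13 and -0.85 (none, 4 and 2 higher, and 3, 2 and 5 lower). The comparisons do not share arrays, but each rests on only 2 surrounding arrays. The plot of inner ear against surrounding tissue gives all 31 genes in the 3 windows.

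**Figure D2:**
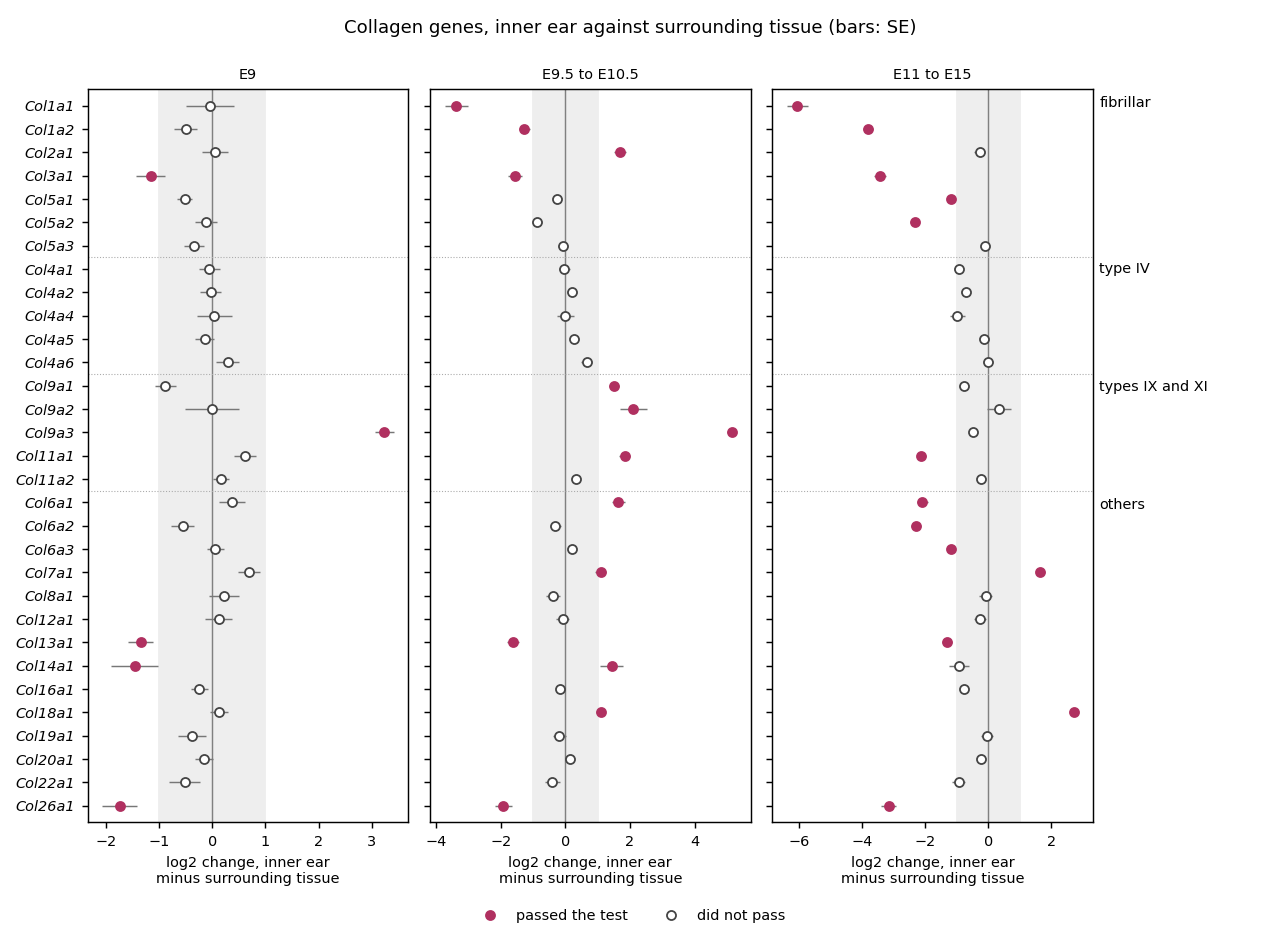
Difference of inner ear minus surrounding tissue (log2 scale, bars are the SE) for 31 collagen genes, ordered by class, in the windows E9, E9.5 to E10.5 and E11 to E15. Filled points passed the test and the grey band spans changes under 1; Col9a3 stands at 5.15 in the middle window and Col1a1 at -6.05 in the last.

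Type IX, whose 3 chains Col9a1, Col9a2 and Col9a3 form a single molecule on the surface of type II fibrils, separated the early ear from its surroundings. Col9a3 had signals of 287 and 237 in the placode, against 10 and 17.1 in the surrounding tissue at E9. The groups did not overlap, and the change was 3.24 (SE 0.17, adjusted p = 1.4e-17). At E9.5 to E10.5, Col9a3 lay at 621 to 1724 (median 927, n = 8) in the inner ear, against the floor of 10 on both surrounding arrays. Its change of 5.15 (SE 0.14, adjusted p = 8.52e-28) depends in size on that floor and on the pseudocount. By E11 to E15, Col9a3 lay at 976 to 7364 (median 3564, n = 48) in the inner ear and at 3756 and 4543 around it, a difference of -0.48 (SE 0.12) that did not pass.

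Col9a2 was at the floor on both placode arrays and both surrounding arrays at E9, so it has no measured difference there. At E9.5 to E10.5 it had 21.7 to 231 (median 131, n = 8) in the inner ear and the floor of 10 on both surrounding arrays, a change of 2.11 (SE 0.41) whose size again depends on the floor. Its inner ear signals at E11 to E15 of 85.8 to 2284 (median 572, n = 48) spanned those of the surrounding tissue, 242 and 507. Col9a1, the chain with an extra globular end in its long form, had 341 to 1262 (median 594, n = 8) in the inner ear at E9.5 to E10.5, against 186 and 189 around it. All 8 inner ear arrays stood above both surrounding arrays, with a change of 1.51 (SE 0.16, adjusted p = 6.56e-10). At E9 the order was the other way, 191 and 276 in the placode and 399 and 477 in the surrounding tissue, and the change of -0.88 (SE 0.20) stayed under the fold threshold. The second probe set of Col9a1 gave -1.50 at E9, which passed.

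Col11a1, the first chain of type XI, which lies in the core of the type II fibril, changed sides. At E9.5 to E10.5 its signals were 130.4 to 529 (median 283, n = 8) in the inner ear and 56.0 and 80.4 in the surrounding tissue, a change of 1.84 (SE 0.17, adjusted p = 1.28e-11). In the later window they were 118 to 752 (median 298, n = 48) in the inner ear and 1358 and 1401 around it, a change of -2.12 (SE 0.15, adjusted p = 4.92e-15). The inner ear stood wholly above its surroundings in the earlier window and wholly below them in the later one. Col11a2, the second chain of type XI, stayed at 44.0 to 96.4 over all 64 arrays and passed in no comparison.

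Among the fibrillar collagens, only Col2a1 was higher in the inner ear in any of the 3 windows. Col2a1, whose type II fibrils fill cartilage and the tectorial membrane, had 1028 and 1188 in the placode and 935 and 1218 in the surrounding tissue at E9, a difference of 0.05 (SE 0.24). By the next window it lay at 2712 to 5207 (median 3863, n = 8) in the inner ear and 1027 and 1139 around it, with a change of 1.70 (SE 0.19, adjusted p = 3.77e-09). Later, the inner ear signals of 1611 to 8342 (median 4726, n = 48) overlapped the surrounding 4708 and 5719, and the difference was -0.28 (SE 0.17).

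Type I collagen, the main fibril of bone, tendon and skin, was lower in the inner ear in both later windows. Col1a1 was at the floor or just above it at E9 on all 4 arrays (10 and 10 in the placode and 10 and 11.7 around it). At E9.5 to E10.5 it lay at 10 to 19.5 (median 10, n = 8) in the inner ear, with 5 of 8 arrays at the floor, and at 253 and 285 in the surrounding tissue, a change of -3.38 (SE 0.36). At E11 to E15 it lay at 10 to 210.2 (median 21.3, n = 48) in the inner ear, with 12 of 48 arrays at the floor, against 2632 and 3472 around it, a change of -6.05 (SE 0.32, adjusted p = 1.14e-18). Because of the floor the sizes of both changes depend on the pseudocount, and the other probe set of Col1a1 gave -1.15 and -3.89. Col1a2, its partner chain, had 79.3 and 106, 93.6 to 171 and 102 to 601 in the inner ear in the 3 windows, against 131 and 143, 338 and 370.5 and 3071 and 3208 in the surrounding tissue. Its changes were -0.50, -1.27 and -3.81 (SE 0.16), and the last 2 passed. With the values as deposited, the E9.5 to E10.5 changes of Col1a1 and Col1a2 were -0.93 and -0.92, under the fold threshold.

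Col3a1, the type III chain of soft connective tissue and vessel walls, was lower in the inner ear in all 3 windows. It had 78.6 and 78.3 in the placode and 201 and 189 around it, then 71.5 to 287 (median 118, n = 8) against 353 and 410.0, then 50.6 to 594 (median 123, n = 48) against 1552 and 1855. No inner ear array reached a surrounding array of its window, and the changes were -1.16, -1.56 and -3.43 (SE 0.20). The E9 change was under the fold threshold at a pseudocount of 64 (-0.86), as deposited (-0.73) and with the mean of its probe sets (-0.79). A second, dimmer probe set gave -0.43, -0.67 and -2.35. Of the type V chains, which set the width of type I fibrils, Col5a1 and Col5a2 passed at E11 to E15. Col5a1 lay at 148 to 529 (median 247, n = 48) in the inner ear, against 488 and 614 around it (-1.19, SE 0.10), and Col5a2 at 70.0 to 324 (median 125, n = 48) against 642 and 793 (-2.33, SE 0.15). As deposited the change of Col5a1 was -0.97. At E9.5 to E10.5 Col5a2 did not pass, although all 8 inner ear arrays lay below both surrounding arrays. With the mean of its probe sets its change there was -1.03, which passed. Col5a3 lay at 33.7 to 120.1 over all arrays and passed nowhere.

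No type IV gene passed in the 3 windows. Col4a1 and Col4a2, whose chains make up the common basement membrane network, lay at 190.2 to 553 and 168 to 538 in the inner ear at E11 to E15, against 652 and 669 and 436 and 465 in the surrounding tissue. The differences, -0.93 (SE 0.15) and -0.72 (SE 0.14), stayed under the fold threshold. The second probe set of Col4a1 passed at -1.32, and the mean of its probe sets at -1.13. The minor chain Col4a4 gave -0.99 (SE 0.24), with 102 and 310.4 on the surrounding arrays. Its difference passed at a pseudocount of 1 (-1.10) and without the E14 arrays (-1.03). Col4a5 (85.7 to 217 over all arrays) and Col4a6 (34.4 to 124) changed by -0.14 and -0.00. Col4a3, Col4a4 and Col4a5 encode the network affected in Alport syndrome, a human disease of kidney and hearing.

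Of the other collagens, 2 of the basement membrane zone were higher in the inner ear. Col18a1, a basement membrane proteoglycan and the source of endostatin, had 595 to 1023 (median 848, n = 8) at E9.5 to E10.5, against 353 and 365 around it (1.10, SE 0.14). The later window had 808 to 1883 (median 1193, n = 48), against 163 and 171, a change of 2.73 (SE 0.13, adjusted p = 1.38e-20). Every inner ear array of each window stood above both surrounding arrays. Col7a1, the collagen of anchoring fibrils in skin, was dim but also separated the groups, at 44.1 to 96.6 against 16.9 and 21.9 (1.10, SE 0.17) and at 37.5 to 269 against 16.9 and 19.5 (1.65, SE 0.15). Without the second surrounding array the change of Col7a1 at E9.5 to E10.5 was 0.99. At a pseudocount of 64 its changes were 0.57 and 0.95 in these windows, both under the fold threshold. At E9 neither passed: Col18a1 had 516 and 579 in the placode and 419 and 596 around it, and Col7a1 had 52.3 and 43.5 in the placode and 23.7 and 23.5 around it.

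Type VI collagen forms beaded microfibrils from the chains of Col6a1, Col6a2 and Col6a3, and of these only Col6a1 passed in both later windows, in opposite directions. Col6a1 lay at 1629 to 5103 (median 3228, n = 8) in the inner ear at E9.5 to E10.5, against 923 and 969.7 in the surrounding tissue, a change of 1.65 (SE 0.19, adjusted p = 5.21e-09). At E11 to E15 it lay at 341 to 5939 (median 1389, n = 48) against 5449 and 6505, a change of -2.09 (SE 0.17, adjusted p = 3.19e-13), with 46 of 48 inner ear arrays below both surrounding arrays. Col6a2 (65.9 to 217 against 638 and 672, -2.28 (SE 0.15)) and Col6a3 (42.9 to 152 against 253 and 266, -1.19 (SE 0.12)) were lower at E11 to E15 as well, although Col6a3 gave -0.93 at a pseudocount of 64. They differed by -0.32 and 0.21 at E9.5 to E10.5, and neither passed there.

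Col13a1, a collagen anchored in the cell membrane, and Col26a1, a small secreted collagen, were lower in the inner ear in every window. Col13a1 had 42.4 and 38.4 in the placode and 129 and 126 around it, and changes of -1.35, -1.61 and -1.31 (SE 0.17). Without surrounding replicate 2 the last was -0.89. At a pseudocount of 64 the first was -0.88 and the last -0.89, and as deposited the first was -0.94, all under the fold threshold. Col26a1 had 236 and 408 in the placode against 979 and 1183, and 119 to 839.5 (median 282, n = 48) in the later inner ear against 2463 and 2823. Its changes were -1.74, -1.92 and -3.16 (SE 0.24), and no inner ear array reached a surrounding array.

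Col14a1, which decorates type I fibrils, changed sides early. It had 39.8 and 46.6 in the placode and 122 and 175 around it at E9 (-1.46, SE 0.44, adjusted p = 0.0148). In the next window it had 29.3 to 886 (median 219, n = 8) in the inner ear against 55.8 and 59.4 (1.43, SE 0.35, adjusted p = 0.00146), with 7 of 8 arrays above both surrounding arrays and 1 cochlear array at E10.5 below them. At E11 to E15 the inner ear range of 10.0 to 4753 held the surrounding 1181 and 1737. A second probe set of Col14a1 gave -0.11 at E9 and 0.24 at E9.5 to E10.5, and neither passed. The E9 call also rests on single arrays: its adjusted p was 0.0996 and 0.0523 without placode replicates 1 and 2, and 0.139 without surrounding replicate 2. At a pseudocount of 64 it was -0.98, and with the mean of probe sets the E9 and E9.5 to E10.5 changes were -0.79 and 0.84. Col12a1, Col16a1, Col19a1, Col20a1, Col22a1 and Col8a1 passed in none of the 3 windows.

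Beside these differences the cell type lists moved too, and their part in the collagen values was not tested. Of 17 measured periotic mesenchyme genes 10, 10 and 15 were lower in the inner ear in the 3 windows and none was higher, with Twist1, a mesenchymal transcription factor, at -2.19 (SE 0.31), -2.57 (SE 0.25) and -3.62 (SE 0.22). Postn was at the floor on both placode arrays, as it was on both surrounding arrays at E9, and Meox2 on all 8 inner ear arrays of E9.5 to E10.5, while no other of these genes was at the floor on every inner ear array of a window. Of 15 epithelial genes 12, 13 and 12 were higher, with Epcam at 2.58 (SE 0.18), 2.48 (SE 0.14) and 3.08 (SE 0.13). Epcam was at the floor on both later surrounding pools. Of 11 cartilage genes 2, 1 and none were higher in the inner ear, while none, none and 6 were lower. Cnmd led the first window (4.04), and Matn4 (-4.64), Matn1 (-4.51) and Hapln1 (-4.50), which encode cartilage matrix proteins, led the last. The summed cartilage signal was 2732 to 11503 in the inner ear at E11 to E15 and 10886 to 14128 around it. Endothelial genes were lower in 4, 5 and 7 of 8, neuronal genes in 3, 8 and 7 of 10 (1 was higher in the last window), and red blood cell genes in none, 4 and 4 of 5. Macrophage genes were lower in 1, 1 and 3 of 7. Of 7 neural crest and glial genes 1, 2 and 2 were higher and 1 was lower in each window, and of 5 muscle genes 1, none and none were higher and 1, 1 and 3 lower. Over all genes, 2.71, 3.72 and 8.47 percent were higher and 3.23, 4.68 and 7.14 percent lower in the 3 windows. In lists this short, a count of 1 gene is not read as a result.

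How far the inner ear difference moved between windows was then tested as a difference of differences. It was inner ear minus surrounding tissue at E11 to E15 less the same at E9.5 to E10.5, a contrast chosen after the values were seen. A fall is a move of this difference toward the surrounding tissue, not necessarily a lower inner ear signal or a change of sides. Only Col11a1 and Col6a1 passed in opposite directions in these windows. The difference fell for 14 of 31 collagens and rose for 1. Over all genes 9.00 percent were called, 5.16 percent higher and 3.84 percent lower. The falls included Col9a3 (-5.63, SE 0.19), Col11a1 (-3.96, SE 0.22) and Col6a1 (-3.73, SE 0.26), and Col18a1 rose (1.62, SE 0.19). Col9a3 and Col9a2 were at the floor on both earlier surrounding arrays. The sizes of their changes therefore depend on the floor and the pseudocount and cannot be ranked. The fall of Col9a2 did not pass without either array of the earlier surrounding pool or replicate 1 of the later one (adjusted p = 0.0602, 0.0711 and 0.188), nor that of Col26a1 without replicate 2 of the earlier pool (adjusted p = 0.0569). The windows also differ in dispase time, and stage and dispase time cannot be told apart here.

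The surrounding tissue was also compared with itself over time. In its E11 to E15 pool, compared with E9, 15 of 31 collagens rose and 1 fell, against 19.7 percent of all genes called, 10.2 percent higher and 9.51 percent lower. The collagen median was 0.96, beside 0.00 over all genes. Stage and dispase time cannot be told apart in this comparison. Col9a3 rose by 7.14 (SE 0.17, adjusted p = 8.72e-30), to 3756 and 4543 at E11 to E15 against 10 and 17.1 at E9. Col1a1 rose by 6.82 (SE 0.45), to 2632 and 3472 against 10 and 11.7, and Col1a2 by 4.37 (SE 0.22). At E9 Col9a3 and Col1a1 were at the floor on 1 of 2 arrays and Col9a2 on both, so the sizes of their changes depend on the floor and the pseudocount and cannot be ranked. Col11a1 rose to 1358 and 1401 at E11 to E15, against 59.8 and 63.9 at E9 (4.16, SE 0.21), Col6a1 to 5449 and 6505 against 365 and 422 (3.87, SE 0.24), and Col2a1 to 4708 and 5719 against 935 and 1218 (2.26, SE 0.24). In each of these the later arrays lay wholly above the E9 arrays. They did so for Col12a1, Col16a1, Col4a2, Col4a5 and Col6a3 as well, which did not pass, so such separation does not mark a change here. The others that rose were Col9a2 (3.82), Col14a1 (3.16), Col3a1 (3.02), Col9a1 (2.50), Col5a2 (1.75), Col5a1 (1.40), Col26a1 (1.28), Col4a1 (1.14) and Col6a2 (1.08, or 0.98 without surrounding E9 replicate 2). Col18a1 fell to 163 and 171, against 419 and 596 at E9 (-1.49, SE 0.18). Cartilage genes rose in 8 of 11, among them Cnmd (6.93), Matn4 (6.52) and Matn1 (4.77), and periotic mesenchyme genes rose in 8 of 17, with 1 lower; their part in the collagen rise was not tested.

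The second question was how collagens change as the placode becomes a vesicle. In the vesicle at E10, 6 of 31 collagens were higher than in the placode at E9 and none was lower, against 5.29 percent of all genes called, 3.73 percent higher and 1.56 percent lower. Col6a1 led, with 2730.1 and 3236 at E10 and 478 and 549 at E9, a change of 2.50 (SE 0.24, adjusted p = 4.56e-10). Col14a1 had 304 and 246 against 39.8 and 46.6 (2.29, SE 0.44), although its second probe set gave 0.17. Col2a1 had 4122 and 3071 against 1028 and 1188 (1.67, SE 0.24), and Col11a1 406 and 341 against 98.6 and 107.7 (1.71, SE 0.21). Col9a3 had 1029.7 and 712 against 287 and 237 (1.66, SE 0.17). The vesicle arrays lay above the placode arrays for each of these 5 genes. They did so for many collagens that did not pass too, among them Col18a1, Col4a1, Col4a2, Col1a2, Col3a1, Col5a1, Col5a3, Col6a2, Col13a1 and Col22a1. With 2 arrays on each side such separation thus does not mark a change. Col9a2 had 128 and 21.7 against the floor of 10 on both placode arrays (1.50, SE 0.51, adjusted p = 0.0287). That call rests on single arrays: without vesicle replicate 1 the change was 0.54 with an adjusted p of 0.577, and without placode replicate 1 or 2 the adjusted p was 0.109 or 0.112. At a pseudocount of 64 the change of Col9a2 was 0.79. At E9.5, between these stages, Col9a3 had 854 and 621, Col2a1 2712 and 2715 and Col11a1 218 and 224. Their means lay between those of E9 and E10. Periotic mesenchyme genes changed both ways (2 higher and 2 lower of 17).

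The third question was how collagens change as the organs mature. Trends were taken as the fitted linear change from the first to the last stage of the span. In the cochlea over E10.5 to E15, 4 of 31 collagens rose and 2 fell, against 14.9 percent of all genes called, 8.06 percent higher and 6.89 percent lower. Over E12.5 to E15, 6 rose and none fell in the cochlea, against 6.30 percent of all genes called, 3.42 percent higher and 2.88 percent lower. In the utricle with ampullae 5 rose and none fell over these days, against 7.53 percent of all genes called, 5.04 percent higher and 2.49 percent lower. The saccule had 1 that rose and 3 that fell, against 7.08 percent of all genes called, 4.59 percent higher and 2.49 percent lower. In the vestibular organ over E10.5 to E12, none rose and 1 fell, against 4.02 percent of all genes called, 2.23 percent higher and 1.79 percent lower. The 2 spans from E10.5 cross the change in dispase time, so stage and dispase time cannot be told apart between E10.5 and E11. Over E11 to E15 only, 5 collagens rose and 2 fell in the cochlea, where 717 of all 9352 genes rose and 641 fell. The 5 genes of types IX and XI had median trends over E12.5 to E15 of 1.24 in the cochlea (4 rose), 1.09 in the utricle (3 rose) and 0.73 in the saccule (1 rose). The median of all genes was -0.00, -0.00 and -0.02. The plot of late trends gives all genes in the 3 organs.

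**Figure D3:**
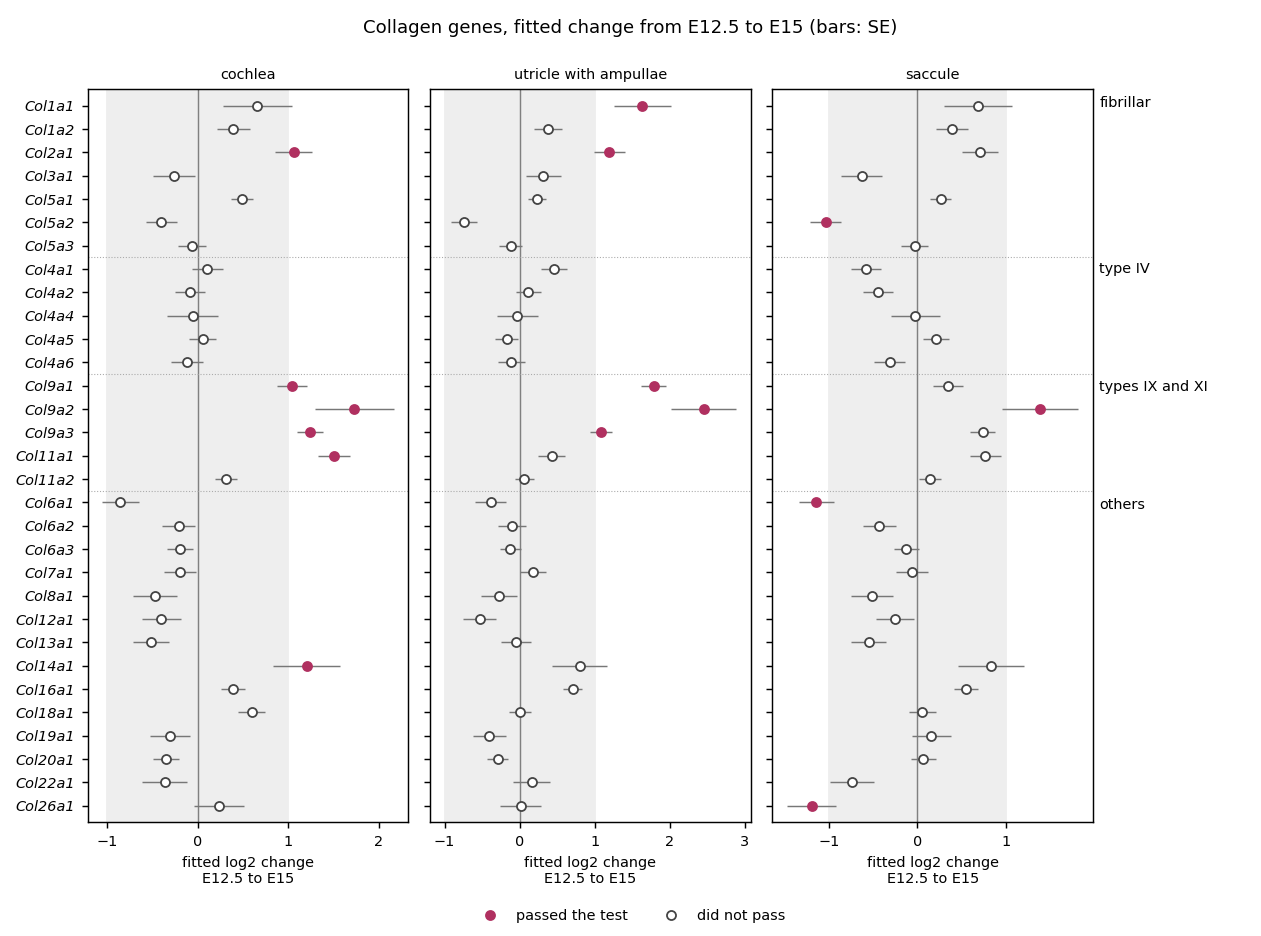
Trend over E12.5 to E15 (fitted log2 change, bars are the SE) of 31 collagen genes in the cochlea, the utricle with ampullae and the saccule. Filled points passed the test; Col9a2 rose in all 3 organs, by 1.73, 2.45 and 1.38.

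Col9a2 rose in all 3 organs over E12.5 to E15. Col9a2 in the cochlea had 279 and 487 at E12.5, 1651 and 1942 at E14 and 1516 and 551 at E15, and its trend was 1.73 (SE 0.43) over E12.5 to E15 and 3.36 (SE 0.36, adjusted p = 2.87e-10) over E10.5 to E15. In the utricle it had 134 and 175 at E12.5 and 1067 and 693 at E15 (2.45, SE 0.43, adjusted p = 2.76e-05), and in the saccule 449 and 469 and 848 and 1501 (1.38, SE 0.43). The E15 arrays stood above the E12.5 arrays in each organ, and E14 arrays were the highest in the cochlea and saccule. The utricular mean was highest at E14 as well (1204), with 735 at E14.5 and 880 at E15. In all 3 organs the linear trend thus covers a peak at E14 and lower means after it. Single arrays decided the later cochlear call (1.22, adjusted p = 0.0695 without cochlea E15 replicate 1). They also decided the saccular one (0.97, adjusted p = 0.0844 without E13 replicate 1, and 1.09, adjusted p = 0.114 without E15 replicate 2).

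Col9a3 rose in the cochlea, with 999 and 733 at E10.5, 2170.1 and 2193 at E12.5 and 5522 and 4386 at E15, a trend of 2.58 (SE 0.12, adjusted p = 1.47e-20) over the whole span. In the utricle it had 2810.1 and 3659.9 at E12.5 and 7364 and 6765 at E15 (1.09, SE 0.15). The saccule had 2583 and 3239 and 4599 and 4794 at these stages, and its trend of 0.73 (SE 0.15) did not reach the fold threshold. Without utricle E12.5 replicate 1 the utricular trend was 0.95, and with the mean of its probe sets 0.78. Col9a1 rose by 1.79 (SE 0.17) in the utricle, where it had 1129 and 797 at E12.5 and 2813 and 2314 at E15. In the cochlea it lay at 1262 and 1200.1 at E10.5, 869.6 and 746 at E12.5 and 1397 and 1537 at E15, with a trend of 1.04 (SE 0.17) over the later days and 0.27 (SE 0.14) over all. The later trend was under the threshold without cochlea E12.5 replicate 2 (0.96), without E15 replicate 2 (0.99) and without the E14 arrays (0.93), as well as with the mean of its probe sets (0.82). In the saccule Col9a1 stood at 2607 to 6194 throughout, with the highest arrays at E14 (6194 and 5564). Its mean was highest at E14 in the cochlea (1961) and the utricle (3211) too.

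Col11a1 rose in the cochlea at the last stages. It had 199 and 184 at E12.5, 295 and 236 at E14, 396 and 303 at E14.5 and 752 and 609 at E15, and both E15 arrays lay above all earlier cochlear arrays. The trend was 1.50 (SE 0.18, adjusted p = 1.03e-08) over E12.5 to E15 and 1.47 (SE 0.15) over E10.5 to E15. In the utricle the trend was 0.42 (SE 0.18) and in the saccule 0.77 (SE 0.18), and neither passed. The difference of the cochlear and utricular trends was 1.08 (SE 0.25, adjusted p = 0.00396), the only collagen called for that difference (against 3.86 percent of all genes called, 1.73 percent higher and 2.13 percent lower). It was under the threshold of 1 before rounding, at 0.94 to 1.00, without cochlea E14.5 or E15 replicate 1 or utricle E12.5 replicate 1 or E15 replicate 2. It was 0.93 at a pseudocount of 64 and 0.96 as deposited.

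Col2a1 rose with type IX. In the cochlea it had 2653 and 4215 at E12.5 and 7749 and 5369 at E15 (1.06, SE 0.20), and in the utricle 3599 and 3898 and 8342 and 8207 (1.20, SE 0.20, adjusted p = 1.56e-05). In the saccule the trend was 0.71 (SE 0.20), under the fold threshold. Earlier, the cochlea had 3604 and 4866 at E10.5, 5492 and 4857 at E11 and 2485 and 1611 at E11.5. The trend over E10.5 to E15 was 0.99 (SE 0.17), under the fold threshold. It was 1.35 without the E11 arrays and 1.23 over E11 to E15 only, and passed in both. The later cochlear trend was 0.82, 0.89 and 0.87 without replicate 1 of E12.5, E13 and E15. Col1a1 rose by 1.64 (SE 0.38) in the utricle, where it was at the floor on 4 of 12 arrays and reached 180.4 and 96.3 only at E15. That call did not hold at a pseudocount of 1 (0.97), at 64 (0.93) or as deposited (0.71). Col3a1 fell by 1.26 in the cochlea over E10.5 to E15 (SE 0.19), with 287 and 139.8 at E10.5, 224 and 317 at E11.5 and 109.9 and 86.8 at E15. That trend was -0.95 at a pseudocount of 64 and -0.77 with the mean of its probe sets, both under the fold threshold.

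Col6a1 fell in the cochlea, the vestibular organ and the saccule. The cochlea had 5103 and 4819.7 at E10.5, 2299 and 2170.1 at E12 and 978 and 998 at E15, a trend of -1.68 (SE 0.17, adjusted p = 4.31e-11). The vestibular organ had 3721 and 2649 at E10.5 and 897 and 736 at E12 (-2.06, SE 0.22, adjusted p = 9.22e-09), and the saccule 1848 and 1404 at E12.5 and 1025 and 865 at E15 (-1.14, SE 0.20, just under the threshold without E12.5 replicate 1 and -0.94 as deposited). Within the cochlea it stepped down between E11 (5939 and 5778) and E11.5 (2482 and 2424), and the groups at these stages did not overlap. Col14a1 rose by 4.26 (SE 0.31, adjusted p = 9.97e-15) in the cochlea over E10.5 to E15, with 192 and 29.3 at E10.5, 459.8 and 528 at E12.5 and 1317 and 881 at E15. Its second probe set gave 0.63 over this span, which did not pass. Over E12.5 to E15 the cochlear trend was 1.20 (SE 0.37), with an adjusted p of 0.0713 without E12.5 replicate 1 and 0.101 without E15 replicate 1, and was 0.83 with the mean of its probe sets.

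In the saccule Col5a2 fell, to 150.3 and 133 at E15 against 324 and 315 at E12.5 (-1.03, SE 0.17), and Col26a1 fell, to 203 and 370.3 against 697 and 600.1 (-1.19, SE 0.28). The Col5a2 trend lay at -0.98 without E15 replicate 2, just under the threshold without E14.5 replicate 1, and at -0.85 with a pseudocount of 64. The Col26a1 trend lay at -0.90 without E15 replicate 1 and -0.96 without E13 replicate 2. Col26a1 was the only collagen whose cochlear and saccular trends differed (1.43, SE 0.39, adjusted p = 0.0125, against 5.04 percent of all genes called, 1.94 percent higher and 3.10 percent lower), and that call was lost without cochlea E15 replicate 1 (adjusted p = 0.0642) or saccule E15 replicate 1 (adjusted p = 0.0852). Periotic mesenchyme genes also fell in the saccule over these days (5 of 17, with 1 higher), among them Foxd1 (-2.01), as did red blood cell genes (3 of 5). Their part was not tested. Over all genes, 4.59 percent rose and 2.49 percent fell in the saccule. No type IV gene passed in any trend, where the greatest value was -0.58 (SE 0.17) for Col4a1 in the saccule. Of the other collagens, Col18a1 gave 0.80 (SE 0.12) in the cochlea over E10.5 to E15, and Col7a1 -0.93 (SE 0.20) in the vestibular organ, and neither passed.

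The last question was how the organs differ from each other. In the cochlea at E10.5 to E12, 1 collagen was higher and 1 lower than in the vestibular organ, out of 31, against 1.41 percent of all genes called, 0.535 percent higher and 0.877 percent lower. In the cochlea at E12.5 to E15, 1 was higher and 1 lower than in the utricle with ampullae, against 3.07 percent of all genes called, 1.20 percent higher and 1.87 percent lower. Compared with the saccule, none was higher and 3 were lower in the cochlea, against 3.77 percent of all genes called, 1.67 percent higher and 2.11 percent lower. In the saccule, 4 were higher and 1 lower than in the utricle, against 2.72 percent of all genes called, 1.20 percent higher and 1.52 percent lower. These comparisons share arrays with each other. Col11a1 did not pass against the vestibular organ, although all 8 cochlear arrays lay below all 8 vestibular arrays. Its difference passed at a pseudocount of 1 (-1.04), without the E11 arrays (-1.06) and as deposited (-1.26). Col9a3 also passed as deposited (-1.06), where the median of all genes was -0.28. The plot of organ differences gives all 31 genes.

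**Figure D4:**
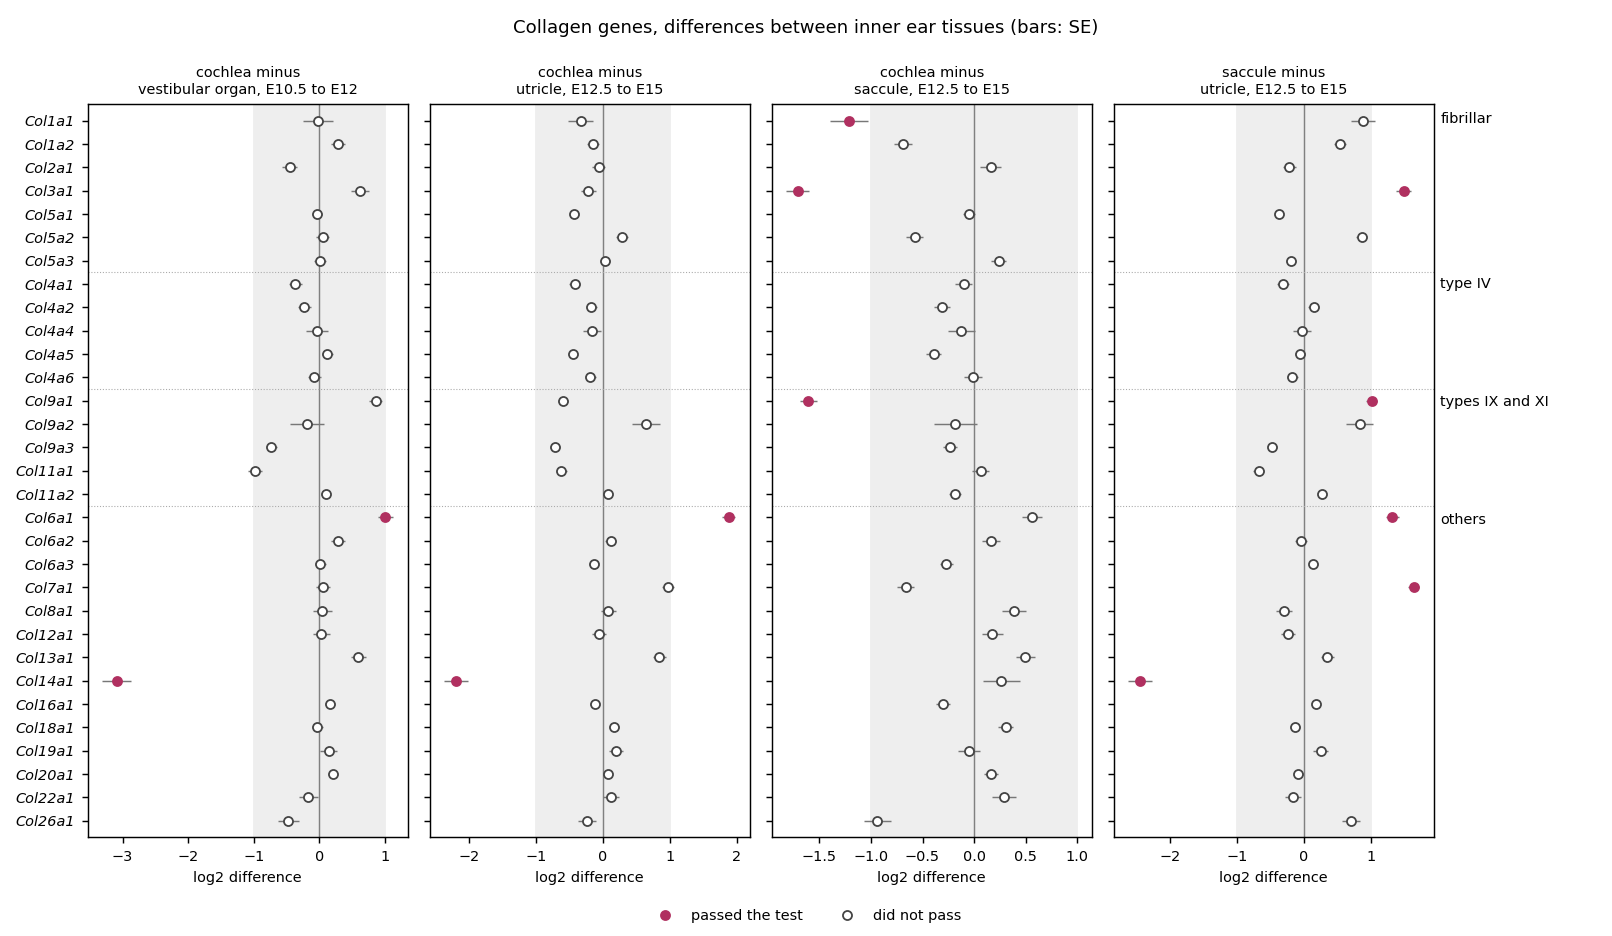
Differences between organs (log2 scale, bars are the SE) of 31 collagen genes, for cochlea minus vestibular organ at E10.5 to E12 and, at E12.5 to E15, cochlea minus utricle, cochlea minus saccule and saccule minus utricle. Filled points passed the test. Col14a1 stands at -3.09, -2.19 and -2.45 in the comparisons with the vestibular organ and with the utricle, by its brighter probe set. Its second probe set stayed under the fold threshold in each.

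Col14a1 was lower in the cochlea than in the early vestibular organ and the later utricle, while the cochlea and saccule overlapped. At E10.5 to E12 it lay at 10.0 to 240.5 (median 122, n = 8) in the cochlea and 629 to 1466 (median 888, n = 8) in the vestibular organ, a difference of -3.09 (SE 0.22, adjusted p = 3.39e-14). At E12.5 to E15 it lay at 422 to 1317 (median 733, n = 12) in the cochlea, 296 to 2110.1 (median 566, n = 12) in the saccule and 2290.5 to 4753 (median 3446, n = 12) in the utricle. Neither cochlea nor saccule reached the lowest utricle array, and their differences from the utricle were -2.19 (SE 0.18, adjusted p = 4.52e-13) and -2.45 (SE 0.18, adjusted p = 1.88e-14). The second probe set of Col14a1 gave -0.07, -0.80 and -0.67 in these comparisons, all under the fold threshold. The calls thus rest on the brighter probe set only, and the second showed almost no difference at E10.5 to E12.

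Col6a1 ran the other way. It lay at 978 to 3292 (median 2084, n = 12) in the cochlea at E12.5 to E15, 767 to 2287 (median 1359.7, n = 12) in the saccule and 341 to 824 (median 509, n = 12) in the utricle. Every cochlear array stood above every utricular one (1.88, SE 0.10, adjusted p = 2.29e-19), and 11 of 12 saccular arrays did (1.32, SE 0.10, adjusted p = 1.88e-14). The cochlea and saccule differed by 0.56 (SE 0.10), which did not pass. At E10.5 to E12, 2170.1 to 5939 (median 3651, n = 8) in the cochlea and 736 to 3721 (median 2012, n = 8) in the vestibular organ overlapped, with the cochlear mean higher at 4 of 4 stages. The difference of 1.01 (SE 0.12) sat at the fold threshold and was 0.57 with the values as deposited. It was under the threshold, at 0.95 or more, without cochlea E10.5 or E12 replicate 1 or vestibular E10.5, E11.5 or E12 replicate 2. Col6a2 and Col6a3 differed between the organs by -0.27 to 0.29, and none of these passed.

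Col9a1 and Col3a1 were higher in the saccule than in both other organs. Col9a1 lay at 2607 to 6194 (median 3192, n = 12) in the saccule, above all cochlear arrays at 746 to 2269 (median 1103, n = 12), and the cochlea minus saccule difference was -1.61 (SE 0.08, adjusted p = 1.78e-19). Against the utricle, at 797 to 3721 (median 1971, n = 12), the saccule was higher by 1.02 (SE 0.08), with overlap and at 6 of 6 stages. This sat at the fold threshold, at 0.97 or more without any 1 of 6 arrays (utricle E12.5, E13.5 and E15 replicate 2 and E14 replicate 1, saccule E13.5 replicate 1 and E14.5 replicate 2), at 0.99 with a pseudocount of 64 and at 0.81 as deposited. Col3a1 had 50.6 to 166 (median 93.6, n = 12) in the cochlea and 129 to 594 (median 355, n = 12) in the saccule (-1.71, SE 0.11, adjusted p = 6.06e-16), while the utricle had 66.7 to 169 (median 112, n = 12) and the saccule minus utricle difference was 1.49 (SE 0.11, adjusted p = 3.92e-14). Col7a1 lay at 138 to 269 (median 196, n = 12) in the saccule, above every utricle array at 37.5 to 68.7 (1.64, SE 0.08, adjusted p = 3.47e-19). The cochlea, at 65.3 to 196, overlapped the saccule for Col7a1, and the cochlea minus saccule difference of -0.66 (SE 0.08) was under the fold threshold. Col1a1 was lower in the cochlea, at 10 to 85.0 (median 13.9, n = 12) with 5 of 12 arrays at the floor, against 11.2 to 210.2 (median 62.5, n = 12) in the saccule (-1.21, SE 0.18). That difference was -0.66 at a pseudocount of 64 and -0.91 as deposited, and the saccule minus utricle difference of 0.88 (SE 0.18) was under the fold threshold.

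Markers of other cells differed between the same organs. Red blood cell genes were lower in the cochlea than in the saccule in 3 of 5, with Hbb-b2 at -1.83 (SE 0.32), and higher in the saccule than in the utricle in 2 of 5. Their summed signal was 418 to 3476 in the cochlea, 1229 to 11057 in the saccule and 277 to 3998 in the utricle. Of the 17 periotic mesenchyme genes, 2 were higher and 4 lower in the cochlea than in the saccule, with Lum at 3.91 (SE 0.15) and Foxd1 at -1.49 (SE 0.14), and their sums were 3994 to 9064 in the cochlea, 3009.7 to 4824 in the saccule and 1939.7 to 4025 in the utricle. In the saccule compared with the utricle 3 were higher and 2 lower, with Postn at 3.23 (SE 0.10). Their part in the values of Col1a1 and Col3a1 was not tested. Cartilage genes were lower in the cochlea than in the saccule in 1 of 11 (Matn4, -1.57), and 1 was higher and 1 lower than in the utricle. Over all genes, 1.67 percent were higher and 2.11 percent lower in the cochlea than in the saccule. The shares were 1.20 and 1.87 percent for cochlea against utricle, and 1.20 and 1.52 percent for saccule against utricle.

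The genes that make, bind and degrade collagen were taken as separate lists. Of 21 measured genes for processing, none was higher and 2 were lower in the inner ear at E9, 1 was higher and 2 lower at E9.5 to E10.5, and none was higher and 6 lower at E11 to E15. Over all genes, the shares in these windows were 2.71 percent higher and 3.23 percent lower, 3.72 percent higher and 4.68 percent lower, and 8.47 percent higher and 7.14 percent lower. The list medians were -0.19, -0.03 and -0.61. Pcolce, which speeds the removal of the procollagen end, stood at -2.06 (SE 0.24), -2.04 (SE 0.19) and -2.70 (SE 0.17). P3h3, a prolyl 3-hydroxylase, stood at -1.73 (SE 0.21), -1.05 (SE 0.17) and -1.54 (SE 0.15), and Serpinh1, the collagen chaperone, at -0.39, -0.49 and -1.44 (SE 0.13). Crtap, a partner of prolyl 3-hydroxylase, was lower at E11 to E15 (-1.43, SE 0.15), and Plod2, a lysyl hydroxylase, was higher at E9.5 to E10.5 (1.68, SE 0.23). P4ha1 and Lox, for proline hydroxylation and cross-linking, gave -0.35 and -0.76 at E11 to E15 and passed in no window.

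With age, 6 of the 21 processing genes rose and none fell in the cochlea over E10.5 to E15, where 8.06 percent higher and 6.89 percent lower were called over all genes. The greatest changes were those of P3h3 (2.21, SE 0.15), P3h4 (1.55, SE 0.18), Plod3 (1.33, SE 0.16) and the procollagen protease Bmp1 (1.27, SE 0.16). Over E12.5 to E15, 2 rose in the cochlea, 4 in the utricle and 3 in the saccule, with P3h3 among them in each (1.24, 1.04 and 1.05), and none fell. The shares of all genes that rose in these organs were 3.42, 5.04 and 4.59 percent. In the surrounding tissue 11 of 21 rose and none fell by E11 to E15, where 10.2 percent higher and 9.51 percent lower were called over all genes, with P3h3 at 2.45 and Serpinh1 at 1.42. No processing gene differed between organs. Of the 4 receptors measured, Ddr1, a collagen receptor kinase of epithelia, changed sides: -1.18 (SE 0.22) at E9.5 to E10.5 and 1.97 (SE 0.19) at E11 to E15. Itga2, an integrin chain for collagen, rose in the utricle (1.27, SE 0.15). Of 8 genes for degradation, Mmp2, a gelatinase, was lower in the inner ear in all 3 windows (-1.85, -2.22 and -1.35 (SE 0.12)) and rose with age in the cochlea (1.92, SE 0.12). Ctsk, a collagen-cutting cathepsin, and the protease inhibitor Timp3 were lower at E11 to E15 (-2.46, SE 0.13 and -1.97 (SE 0.14)). Timp3 was also lower in the cochlea and saccule than in the utricle (-2.86, SE 0.08 and -3.09 (SE 0.08)).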

How the data were processed

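Each of the 64 arrays measured RNA of a pool of microdissected tissues, and GEO's labels gave every array its group and replicate number. The deposited values are MAS5 probe set signals, that is, intensities on a linear scale with a floor of 10, per the submitters' processing notes and the values themselves. The MAS5 version and scaling target are not stated in the labels or notes used. Trimmed means of the arrays ran from 224.7 to 355.3, so the intensities were quantile normalized and turned into log2(signal + 16). Between 5.43 and 12.0 percent of the probe sets of an array lay at the floor, and the number of arrays limits the precision. Of 22626 probe sets, 20380 have a single gene symbol, 691 several and 1555 none in the platform annotation.

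Probe sets at or above the array median on at least 2 arrays were kept (14014), and the brightest kept probe set stood for a gene, which left 9352 genes. They were fitted in a single limma model (limma 3.58.1, R 4.3.3) with 32 groups and 32 residual degrees of freedom, with eBayes and trend, and p-values were adjusted by Benjamini-Hochberg. The fit was also run on simulated data with independent noise and no floor. That run cannot show how the floor or shared replicate effects act on the calls. The arrays of a group came from different litters. Same-numbered cochlea and utricle arrays deviated together at 6 of 6 stages (correlation of deviations 0.20 to 0.51), while cochlea and saccule (-0.50 to 0.57), saccule and utricle (-0.34 to 0.50) and cochlea and vestibular organ (-0.01 to 0.19) did not do so at every stage.

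The members and all lists were chosen with earlier results of these data known. Any collagen could be named, and of each other list up to 4 measured genes with the greatest change in a comparison, plus Serpinh1, P4ha1, Lox, Sox9, Epcam, Twist1 and Matn1. Alternatives were pseudocounts of 1 and 64, no filter, the values as deposited, the mean of a gene's kept probe sets and a replicate block. Further ones were spans without E14 or E11, the cochlear trend over E11 to E15 only, and each array left out. Protein sequences were not analysed here.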

Additional observations from a re-analysis of the deposited data

Results flagged for a closer look

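The trend over E12.5 to E15 differed between organs, by the test of the difference itself, for 2 collagens. Col11a1 differed by 1.08 between cochlea and utricle, and Col26a1 by 1.43 between cochlea and saccule (limma). Each was the only one called of 31 collagens. Over all genes, 3.86 and 5.04 percent were called for these 2 differences, 1.73 and 1.94 percent higher. Both calls were lost when certain single arrays were left out. That of Col11a1 was also lost at a pseudocount of 64 (0.93) and as deposited (0.96).

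The difference between inner ear and surrounding tissue changed between E9.5 to E10.5 and E11 to E15 for 15 of 31 collagens. This again was a test of the change itself, which was added after the values were seen. Over all genes, 9.00 percent were called, 5.16 percent higher and 3.84 percent lower. In types IX and XI the changes were -5.63 for Col9a3, -3.96 for Col11a1, -2.29 for Col9a1 and -1.77 for Col9a2. In the fibrillar class they were -2.67 for Col1a1, -2.54 for Col1a2, -1.97 for Col2a1, -1.86 for Col3a1 and -1.45 for Col5a2. Of the type VI chains, Col6a1 gave -3.73, Col6a2 -1.96 and Col6a3 -1.40. Col14a1 gave -2.36 and Col26a1 -1.24. The calls of Col9a2 and Col26a1 were lost when certain single surrounding arrays were left out. Col18a1 was the only collagen called that moved toward the inner ear, at 1.62. Col9a3 and Col9a2 were at the floor of 10 on both surrounding arrays of the earlier window, so their sizes depend on that floor.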

How the results depend on the processing

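No call on a collagen reversed under any alternative. Over single collagens, 3617 values kept their call, 30 gained and 42 lost one under the alternatives other than leaving out an array, and 2380 kept and 46 lost one with an array left out. The count of collagens called was within 1.5 times that reported except as follows. For inner ear against surrounding tissue at E9 it was 2 at a pseudocount of 64 and 3 as deposited, against 5. For the saccular trend it was 2 as deposited, against 4. For the vestibular trend it was 2 at a pseudocount of 1, against 1. For the difference of cochlear and utricular trends it was 0 at a pseudocount of 64 and as deposited, and 2 with the mean of probe sets, which also gave 2 for cochlear and saccular trends, against 1 each. For cochlea against vestibular organ it was 1 at a pseudocount of 64, against 2, and for cochlea against utricle 4 at a pseudocount of 1, against 2. The cause was not tested.

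With each array left out in turn the counts ran from 4 to 6 at E9, 13 to 14 at E9.5 to E10.5, 12 to 16 at E11 to E15, 5 to 6 for E10 against E9, and 15 to 17 for the surrounding tissue. Trends gave 6 to 7 (cochlea, E10.5 to E15), 3 to 6 (cochlea, later days, with 3 without E15 replicate 1), 4 to 5 (utricle), 2 to 4 (saccule, with 2 without E15 replicate 2) and 1 (vestibular organ). Trend differences gave 0 to 1 in both cases. Organ comparisons gave 1 to 3 (cochlea against vestibular organ), 2 to 3 (against utricle), 3 to 4 (against saccule) and 4 to 6 (saccule against utricle), and the change between windows 13 to 17. Where 1 array was left in a group, its spread was taken from the remaining groups.

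With the replicate block (random, by stage and number, consensus correlation 0.2442) none of the 527 collagen values had another call, which means 0 changed. As deposited, without quantile normalization, the median of all genes moved to 0.32, 0.33 and 0.13 in the 3 windows of inner ear against surrounding tissue, 0.24 for the cochlear trend over E10.5 to E15, 0.12 for the vestibular trend and -0.28 for cochlea against vestibular organ. The collagen splits were then 1 higher and 2 lower at E9 (1 and 4 as reported), 9 and 3 at E9.5 to E10.5 (9 and 5), 1 and 1 for the saccular trend (1 and 3) and 0 and 3 for cochlea against vestibular organ (1 and 1). Where signals lie at the floor of 10, as for Col1a1 and Col9a2, the size of a change depends on the floor and the pseudocount.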
